A study of Mus musculus with 6 samples.

Results

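Long RNAs that stay in the nucleus and long RNAs that host small nucleolar RNAs were followed through 6 RNA sequencing libraries of mouse bone marrow. The set has 7 gene symbols, namely Malat1, Neat1, Gas5, Snhg1, Snhg3, Snhg8 and Snhg12. They were taken by symbol from a table of 33924 genes. Of the 7, 6 were listed, 5 had enough reads to be among the 15708 genes tested, Snhg3 was too low to test, and Snhg8 is not analysed here. The members were chosen by name with their read counts in the 2 groups, and each library's share of reads outside annotated genes, already in view. Levels of the members in the 2 groups are therefore given as a description, and no test of that difference is drawn on.

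The marrow had been depleted with magnetic beads of cells carrying markers of mature lineages. In 3 libraries (Stag2KO) the cohesin gene Stag2 was labelled knocked out and in the other 3 (Stag2WT) it was labelled wild type. The labels give no allele, Cre driver, strain, age or treatment for either group, and do not say whether samples came from separate animals, so the spread that every p-value here rests on may be technical. Stag2 encodes a subunit of cohesin, a ring-shaped complex that links sister chromatids and shapes chromatin loops. Stag2 reads in Stag2KO were at 54.4% of the Stag2WT level, each Stag2KO library lying below each Stag2WT library.

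The libraries held 29435651 to 37722325 reads assigned to genes. Markers of the labelled population were present, with Kit, the stem cell factor receptor gene, at 244 ± 19.5 CPM (counts per 1000000 gene reads, TMM-scaled between libraries) in Stag2KO and 235.6 ± 15.8 in Stag2WT (SD, n = 3 each). Of 14 progenitor markers, 6 were called higher, 2 lower and 6 not called in Stag2KO (57.1%, where 21.2% of all genes were called). A gene was called where the quasi-likelihood test of edgeR gave an adjusted p under 0.05. The summed level of the 14 markers ran from 11573 to 12952 CPM in Stag2KO and from 8333 to 9685 CPM in Stag2WT. Without Mpo, the myeloperoxidase gene, the sums were 4520 to 5168 and 3823 to 4191 CPM. Without Elane too, the neutrophil elastase gene, they were 2013 to 2199 and 1939 to 2013 CPM. The markers called higher were Gata2, Cd34, Meis1, Itga2b, Mpo and Elane. Only the Gata2 call was kept in each fit without 1 library. That of Elane was kept only without Stag2KO replicate 2. Cd34 lost its call without Stag2KO replicate 2 or 3 or Stag2WT replicate 1 or 2. Itga2b lost it without Stag2KO replicate 2 or any 1 Stag2WT library, Meis1 without Stag2WT replicate 1 or 2, and Mpo without Stag2KO replicate 3. The markers called lower were the erythroid genes Klf1 (log2 fold change -0.81) and Epor (-0.68), the erythropoietin receptor gene. Klf1 was no longer called without any single Stag2KO library or Stag2WT replicate 1 (adjusted p 0.0837 to 0.124 by edgeR), nor Epor without any 1 library other than Stag2WT replicate 3 (0.0691 to 0.104). Of 11 markers of lineages that the depletion removes, 4 were called lower, 0 higher and 7 not called (36.4%, against 21.2% of all genes). None of the 11 was at 0. Their summed level ran from 411 to 517 CPM in Stag2KO and from 436 to 623 CPM in Stag2WT. The part of this difference in cell makeup in the values below was not tested. In such bulk samples, fewer cells of a type and less RNA per cell cannot be told apart.

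Malat1 is a long, abundant nuclear RNA found at nuclear speckles, the bodies where splicing factors gather. Neat1 is the scaffold of a second kind of nuclear body, the paraspeckle, and lies next to Malat1 in the genome. Gas5, Snhg1, Snhg3, Snhg8 and Snhg12 are spliced transcripts whose introns carry small nucleolar RNAs (snoRNAs), the guides that direct chemical modification of ribosomal RNA. The intron is kept as the source of the snoRNA, while the spliced exons of such hosts are short-lived and are removed in part by nonsense-mediated decay in the cytoplasm. Several hosts start with a 5′ terminal oligopyrimidine tract, an element best known from messenger RNAs of ribosomal proteins.

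In the GENCODE annotation, 10 snoRNA loci lie inside Gas5, 8 inside Snhg1, 5 inside Snhg12, 2 inside Snhg3 and 1 inside Snhg8. Malat1 and Neat1 hold 0 snoRNA loci, so the division into nuclear RNAs and hosts matches the annotation. Where the RNAs sit in the cell cannot be read from these counts.

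The first transcribed bases of 3 hosts are shown beside those of Malat1, since a pyrimidine tract is known from hosts. Each line gives 30 bases before and 30 bases from an annotated start on, from RefSeq on GRCm38.p6. Capitals mark a pyrimidine tract on the transcribed strand, taken as a C followed by at least 4 bases that are each C or T, with the first C within 10 bases of the start. Gas5 is shown at the one of its 2 annotated starts that carries the tract.
Gas5 (chr1:161035136-161035195, plus strand): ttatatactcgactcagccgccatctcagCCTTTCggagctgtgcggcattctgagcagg
Snhg12 (chr4:132308648-132308707, plus strand): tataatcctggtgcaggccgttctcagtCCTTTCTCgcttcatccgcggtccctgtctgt
Snhg1 (chr19:8723457-8723516, plus strand): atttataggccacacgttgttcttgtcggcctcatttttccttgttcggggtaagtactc
Malat1 (chr19:5802643-5802702, minus strand): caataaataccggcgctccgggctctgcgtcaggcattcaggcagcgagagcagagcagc
The tract is 6 bases long in Gas5 and 8 in Snhg12. It is also found at the starts of Snhg3 (5 bases) and Snhg8 (6 bases). Malat1 and Snhg1 have no match by this criterion, which in Snhg1 says only that these letters do not meet it. The same tract occurs at 30.7% of the 32851 starts in that table, so a match is a description and not evidence of a working element.

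Malat1 was at 488, 768 and 511 CPM in Stag2KO replicates 1, 2 and 3 and at 394, 273 and 338 CPM in Stag2WT replicates 1, 2 and 3. All 3 Stag2KO libraries lay above all 3 Stag2WT libraries, and Stag2KO replicate 2 stood well above the other two. The group means were 589 ± 156 and 335 ± 60.5 CPM (SD, n = 3 each), with a fitted log2 fold change of 0.81 (SE 0.21). With sign counted, 94.4% of tested genes had a lower log2 fold change, which is not a rank by size of change. Without Stag2KO replicate 2 the fold change was 0.58, and without the other libraries in turn it ran up to 0.94.

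Neat1 was at 636, 545 and 589 CPM in Stag2KO replicates 1, 2 and 3 and at 407, 298 and 288 CPM in the Stag2WT libraries in the same order of numbers. The groups did not overlap, and here Stag2WT replicate 1 was the library nearest to the other group. Means were 590 ± 45.6 and 331 ± 65.9 CPM (SD, n = 3 each), a log2 fold change of 0.83 (SE 0.14). With sign counted, 94.7% of tested genes had a lower one. Leaving out 1 library gave 0.74 to 1.01. Short and long isoforms of Neat1 share their start and are counted as 1 gene, so which of them differed is not known.

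**Figure D1:**
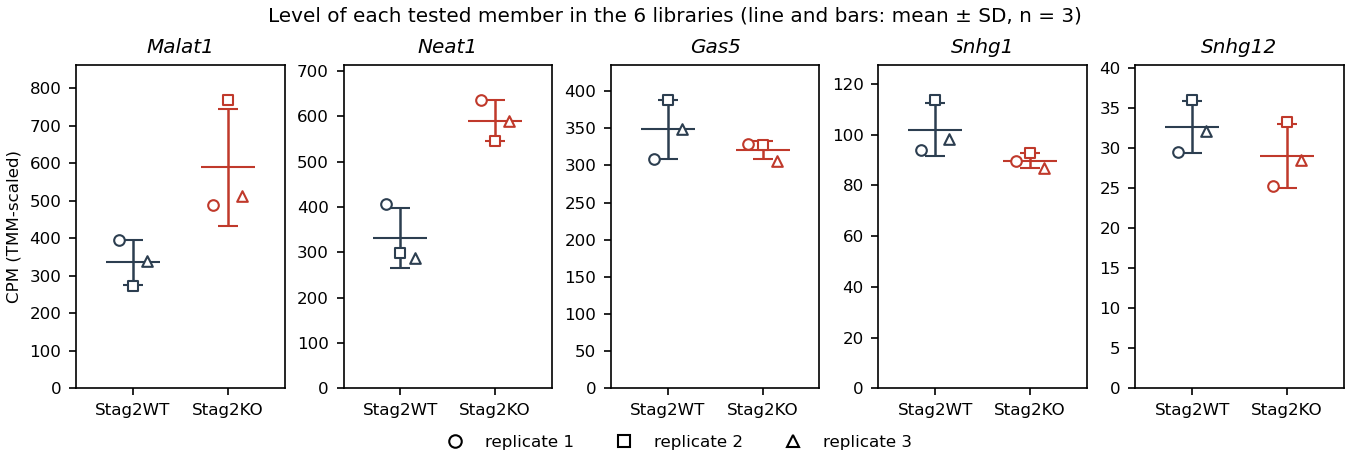
CPM of Malat1, Neat1, Gas5, Snhg1 and Snhg12 (vertical axes, each starting at 0) in 3 Stag2WT and 3 Stag2KO libraries; symbols are libraries and bars are mean ± SD. Malat1 and Neat1 separate the groups upward in Stag2KO, while the hosts lie close together, with Stag2WT replicate 2 the highest value of each host.

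Gas5, named for its rise in growth-arrested cells, was at 329, 327 and 306 CPM in the Stag2KO libraries and at 308, 388 and 349 CPM in the Stag2WT libraries. The groups overlapped, since Stag2WT replicate 1 lay within the Stag2KO values. Means were 321 ± 12.7 and 348 ± 40.0 CPM (SD, n = 3 each), with a log2 fold change of -0.12 (SE 0.09). Without Stag2WT replicate 2 the change was -0.03 and without Stag2WT replicate 1 it was -0.20.

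Snhg1, host of a row of box C/D snoRNAs, was at 89.6, 92.6 and 87.0 CPM in Stag2KO and at 93.9, 113.7 and 98.4 CPM in Stag2WT. These groups did not overlap, but the highest Stag2KO value and the lowest Stag2WT value were nearly equal. Means were 89.7 ± 2.82 and 102 ± 10.4 CPM (SD, n = 3 each), with a log2 fold change of -0.18 (SE 0.08). It moved to -0.10 without Stag2WT replicate 2.

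Snhg12, host of box H/ACA and C/D snoRNAs, was at 25.3, 33.3 and 28.5 CPM in Stag2KO and at 29.5, 36.0 and 32.2 CPM in Stag2WT. The groups overlapped and were as far apart within themselves as from each other, with means of 29.0 ± 4.03 and 32.6 ± 3.25 CPM (SD, n = 3 each). The log2 fold change was -0.17 (SE 0.12), and -0.08 without Stag2KO replicate 1. Snhg3, host of the U17 snoRNAs, had 0, 4 and 1 reads in the Stag2KO libraries and 2, 1 and 0 reads in the Stag2WT libraries. A count of 0 allows up to 0.102 CPM in Stag2KO replicate 1 and up to 0.0888 CPM in Stag2WT replicate 3 (3 reads, counting error only), so no fold change is given.

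Of the 5 tested members, 2 were called higher, 0 lower and 3 not called, where 21.2% of all tested genes were called (10.7% higher, 10.5% lower). The groups did not overlap for 3 of the 5 members, 2 higher and 1 lower, against 43.5% of all tested genes (22.2% higher, 21.2% lower). The members were chosen with this contrast in view, so nothing is read from these counts or from which calls held. Malat1 was no longer called without Stag2KO replicate 3 (log2 fold change 0.91) or without Stag2WT replicate 1 (0.94), 2 (0.69) or 3 (0.82).

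Ratios of reads within a library need no scaling between libraries. Malat1 and Neat1 reads together, per read of Gas5, Snhg1 and Snhg12, came to 2.53, 2.90 and 2.61 in Stag2KO replicates 1 to 3. In Stag2WT replicates 1 to 3 they came to 1.86, 1.06 and 1.31. Every Stag2KO ratio was thus above every Stag2WT ratio, at 2.68 ± 0.193 against 1.41 ± 0.406 (SD, n = 3 each). Snhg1 per Gas5 read kept a narrow range, 0.273 to 0.284 in Stag2KO and 0.282 to 0.305 in Stag2WT. Malat1 per Neat1 read did not separate the groups, at 0.768, 1.41 and 0.868 in Stag2KO and 0.97, 0.916 and 1.18 in Stag2WT. Malat1 and Neat1 thus had like differences between the group means, while libraries within a group ranked differently for the 2 RNAs.

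Reads in no annotated gene, which can come from introns, intergenic sequence or unannotated transcripts, made up 11.1%, 12.8% and 11.2% of Stag2KO replicates 1, 2 and 3. They made up 8.84%, 8.81% and 10.1% of Stag2WT replicates 1, 2 and 3, so all Stag2KO libraries had the larger share. The means were 11.7% ± 0.984 and 9.24% ± 0.725 (SD, n = 3 each). Within Stag2KO, replicate 2 had both the largest such share and the most Malat1, but the least Neat1. Within Stag2WT, replicate 3 had the largest share, a middle level of Malat1 and the least Neat1. With the share as a covariate beside genotype, the log2 fold change was 0.16 for Malat1 and 1.19 for Neat1, and 0 members were called. In that edgeR fit 67 genes were called, against 3333 without the covariate, and 1928 had an unadjusted p under 0.05. The share and the genotype move together in these 6 libraries. Their parts in the differences of Malat1, Neat1 and the other genes therefore cannot be told apart.

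**Figure D2:**
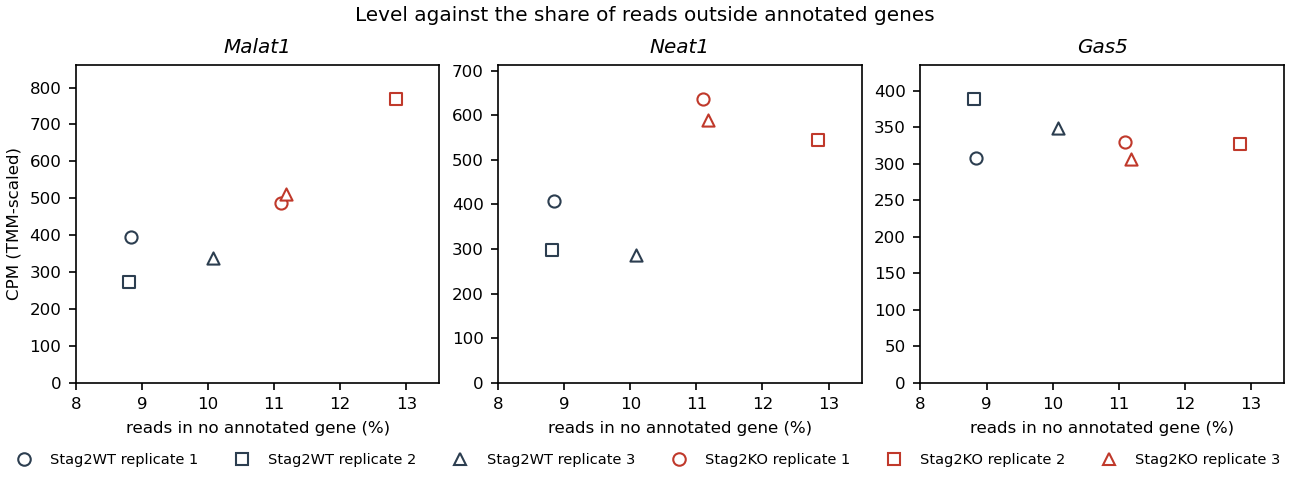
CPM of Malat1, Neat1 and Gas5 (vertical axes from 0) against the percentage of reads in no annotated gene (horizontal axis), 1 point per library. Malat1 is highest in the library with the largest share (12.8%), whereas Neat1 in that library is the lowest of the 3 Stag2KO values.

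**Figure D3:**
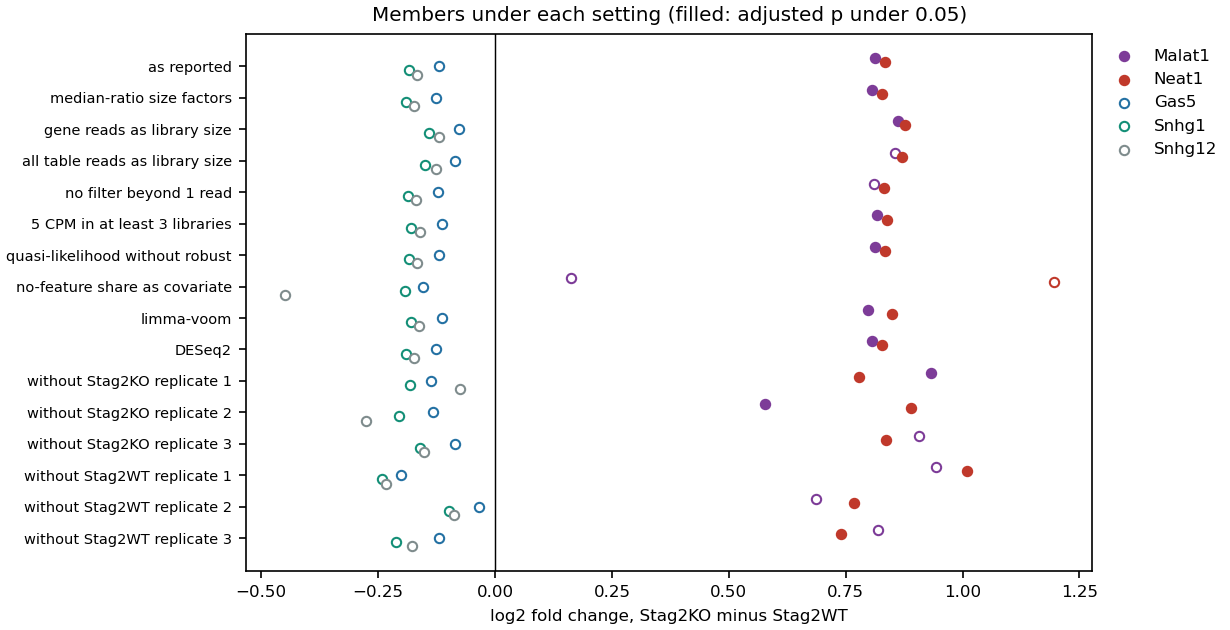
Log2 fold change (Stag2KO minus Stag2WT) of the 5 tested members under each way of processing the counts, filled where the adjusted p was under 0.05. Malat1 and Neat1 stay right of 0 and the hosts left of 0 in every setting drawn; the covariate moves Malat1 to 0.16, Neat1 to 1.19 and Snhg12 to -0.45.

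Of the 26 annotated snoRNA loci inside the hosts, 8 symbols have a row of their own, and the rest are not analysed here. All 8 were at 0 reads in all 6 libraries except Snora16a, an H/ACA snoRNA inside Snhg12. Snora16a had 58, 87 and 67 reads in Stag2KO and 61, 67 and 69 reads in Stag2WT (log2 fold change 0.12, SE 0.20, adjusted p = 0.701 by edgeR). Of 629 rows of small RNAs, 412 had no read in any library and 56 were tested. Of the 56, 3 were called higher and 0 lower (5.36%, against 21.2% of all genes). The 3 were Mir155 (log2 fold change 0.75), Mir199a-1 (1.49) and Snord17 (0.96), at mean levels of 0.352 to 1.63 CPM in Stag2KO. Their calls were not stable, since those of the 2 microRNA rows were lost without any 1 library. That of Snord17 was kept only without Stag2KO replicate 2, with adjusted p up to 0.127 by edgeR over all these fits. Reads of such a row and of a longer transcript running across it cannot be told apart.

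Other long non-coding hosts of small RNAs were mostly not called. Of 13 tested genes in this list 1 was called higher, 0 lower and 12 were not called (7.69%, against 21.2% of all genes), with a median log2 fold change of 0.13 against 0.01 over all genes. That median was 0.05 without Stag2KO replicate 1 or Stag2WT replicate 1. Snhg7 was the one that rose. It was at 34.6, 36.9 and 35.1 CPM in Stag2KO and at 23.9, 25.3 and 24.4 CPM in Stag2WT, so that every Stag2KO value was above every Stag2WT value by more than the spread within a group. The fitted difference was 0.54 on the log2 scale (SE 0.07), with adjusted p = 0.00304 in edgeR, and 0.51 to 0.56 with each library left out. Snhg11, a low-level host, had 0.96 (adjusted p = 0.0505), Snhg17 had 0.24 (0.175) and Mir17hg, host of a microRNA cluster linked to cell growth, had 0.20 (0.175). Those 3 were not called. Leaving out 1 library gave 1 to 3 calls in this list, with 3 without Stag2KO replicate 3 and 2 without Stag2WT replicate 1 or 2. Snhg17 was called without Stag2KO replicate 3 (adjusted p = 0.0493) and Snhg11 without Stag2WT replicate 1 (0.0308).

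Protein-coding hosts of snoRNAs, mostly genes of ribosomal proteins and translation factors, were mostly not called but lay on one side of 0. All 31 were tested and all 31 had a log2 fold change below 0, with a median of -0.18. Over all 15708 tested genes, 7743 were below 0. Only 3 of the 31 were called lower (9.68%, against 21.2% of all genes called, 10.5% lower). The groups did not overlap for 17 of the 31, all lower, against 21.2% of all tested genes lower. Stag2WT replicate 2 stood apart, with a summed level of 34516 CPM against 28643 and 28904 in the other Stag2WT libraries and 25878 to 26201 in Stag2KO. Without it the median was -0.11, with 30 of 31 below 0, and Rps12 was at -0.15, Rpl12 at -0.12, Rpl13a at -0.14 and Rpl30 at -0.14. Hspa8, the constitutive heat shock chaperone gene, went down from 2247 ± 779 to 1094 ± 209 CPM (SD, n = 3 each; log2 fold change -1.04, adjusted p = 0.0387 by edgeR). Rps2, encoding a small ribosomal subunit protein, fell from 1356 ± 217 to 905 ± 50.2 CPM (-0.58, adjusted p = 0.012), and its call was kept in each fit without 1 library. Nop58, encoding a core protein of box C/D snoRNPs, fell from 284 ± 19.3 to 234 ± 17.8 CPM (-0.28, adjusted p = 0.0396). The ribosomal protein genes Rpl30 (-0.23), Rps12 (-0.26), Rpl13a (-0.24) and Rpl12 (-0.22) were not called. The call of Hspa8 was lost without any single Stag2KO library or without Stag2WT replicate 3 (adjusted p 0.0576 to 0.111). That of Nop58 was lost without Stag2KO replicate 1 or 3 or Stag2WT replicate 2 or 3 (0.0757 to 0.124). The list gave 1 to 3 calls without 1 library, with 1 call without Stag2KO replicate 1 or 3 or Stag2WT replicate 3. Ribosomal protein genes have many near-identical pseudogenes, so their counts are uncertain.

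Among genes for the proteins that bind and assemble snoRNAs, the calls depended on which libraries were kept. The median log2 fold change was -0.19. Of 14 genes, 5 were called lower, 0 higher and 9 not called (35.7%, where 21.2% of all genes were called, 10.5% lower). Besides Nop58, these were Fbl, the methyltransferase of box C/D particles (-0.29, adjusted p = 0.0245 by edgeR), and Nhp2, an H/ACA core protein gene (-0.34, 0.0284). Nolc1, a chaperone of snoRNPs in the nucleolus (-0.32, 0.0281), and Ruvbl1, an ATPase of snoRNP assembly (-0.33, 0.0298), made up the rest. Fbl stood at 94.3, 91.9 and 87.9 CPM in Stag2KO and at 103, 121 and 112 CPM in Stag2WT, so the groups did not overlap. Snu13 (-0.30) and Gar1 (-0.21) were not called. The count moved with the libraries: 0 were called without Stag2KO replicate 1 or 3 or Stag2WT replicate 3, 1 without Stag2WT replicate 2, 2 without Stag2KO replicate 2 and 5 without Stag2WT replicate 1. With all reads of the table as library size 0 were called, and with gene reads alone 2.

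**Figure D4:**
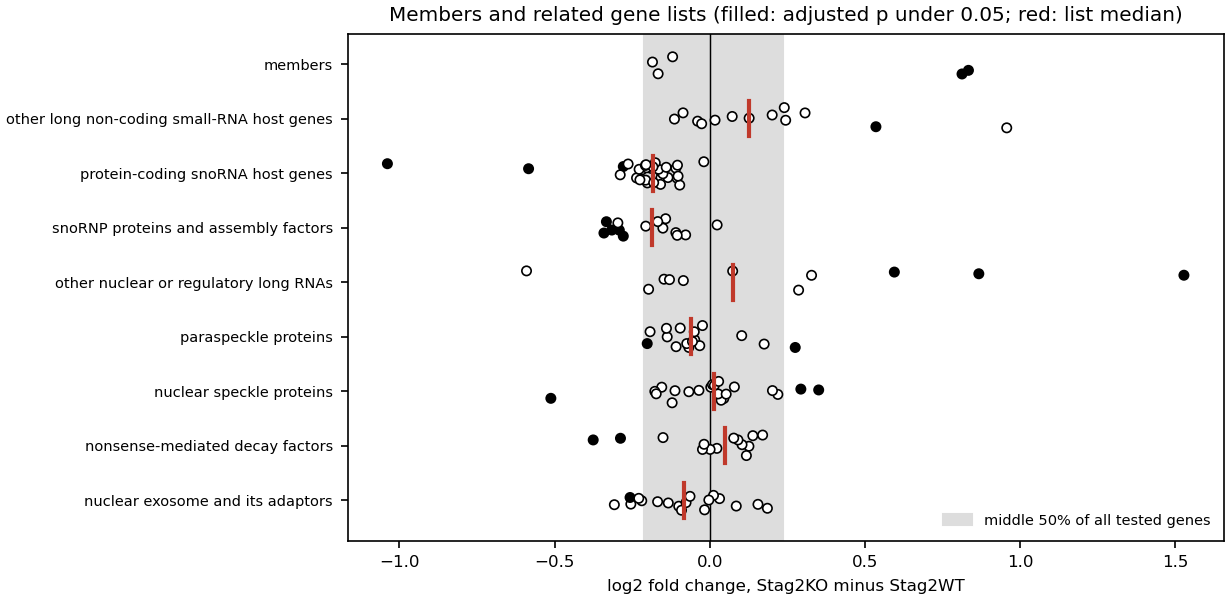
Log2 fold change (Stag2KO minus Stag2WT) of the members and of 8 related lists, 1 point per tested gene, filled where the adjusted p was under 0.05, with a red bar at each related list's median; the grey band holds the middle 50% of all tested genes, from -0.21 to 0.24. Protein-coding hosts and snoRNP genes lie mostly left of 0, and Malat1 and Neat1 stand apart from the 3 tested hosts among the members.

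Other nuclear or regulatory long RNAs were mostly not called. Of 11 tested, 3 were called higher, 0 lower and 8 not called (27.3%, where 21.2% of all genes were called, 10.7% higher). The median log2 fold change was 0.07. Firre, an X-linked nuclear RNA whose locus is rich in sites of the chromatin insulator CTCF, rose from 7.59 ± 1.53 to 13.8 ± 0.618 CPM (0.87, adjusted p = 0.00769 by edgeR). Its call was kept in each fit without 1 library. Jpx, a neighbour and activator of Xist, rose from 5.02 ± 0.726 to 7.57 ± 1.29 CPM (0.59, adjusted p = 0.0466), a call kept only without Stag2KO replicate 1 (lost calls 0.0539 to 0.145). Trp53cor1, a p53-induced RNA at 0.398 CPM in Stag2WT and 1.15 CPM in Stag2KO, stood at a fitted change of 1.53 (log2; adjusted p = 0.0223). It lost its call without Stag2KO replicate 2 or Stag2WT replicate 2 or 3 (0.0616 to 0.0719). Tug1, the most read of these at 209 ± 4.42 and 199 ± 3.37 CPM, was not called (0.07, adjusted p = 0.356), nor was Ftx (-0.20). Without 1 library the list gave 1 to 3 calls, with 1 without Stag2KO replicate 2 or Stag2WT replicate 2 or 3.

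Genes of the nuclear bodies that Neat1 and Malat1 mark were mostly not called. Of 16 paraspeckle protein genes 1 was called higher, 1 lower and 14 not called (12.5%, against 21.2% of all genes). Their median log2 fold change was -0.06. Rbmx, an RNA-binding protein gene, was higher (log2 fold change 0.28, adjusted p = 0.0293 by edgeR) and Taf15, an RNA-binding gene of the same list, lower (-0.20, 0.0359). The Rbmx call was lost without any 1 library other than Stag2WT replicate 3 (0.0583 to 0.0895), and the Taf15 call without any 1 library (0.0565 to 0.133). Ewsr1 was at 0.10, Dazap1 at -0.14, Nudt21 at -0.19 and Hnrnpk at -0.07, none of them called. The calls in this list were down to 0 without any single library other than Stag2WT replicate 3, where 1 was left.

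Among 21 nuclear speckle genes 2 were called higher, 1 lower and 18 not called (14.3%, against 21.2% of all genes). Their median was 0.01. Rnps1, which marks spliced transcripts as part of a complex near exon junctions, decreased from 99.4 ± 4.72 to 69.7 ± 4.37 CPM (SD, n = 3 each; log2 fold change -0.51, adjusted p = 0.00274 by edgeR), in each fit without 1 library too. Srsf5, a splicing factor gene, was called higher (0.35, adjusted p = 0.0357), as was Son, a scaffold gene of speckles (0.29, 0.0455). The Srsf5 call was lost without any single Stag2KO library or Stag2WT replicate 3 (0.0652 to 0.0948), and the Son call without any 1 library (0.0589 to 0.131). Acin1 (0.20), Srsf1 (-0.15), Srsf7 (-0.18) and U2af1 (-0.17) were not called. The list had 1 call without any single Stag2KO library or Stag2WT replicate 3.

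Decay factors were examined because spliced hosts are removed by nonsense-mediated decay. The 14 genes examined had a median log2 fold change of 0.05. Of these, 2 were called lower, 0 higher and 12 not called (14.3%, against 21.2% of all genes). Both belong to the exon junction complex, Magoh (-0.38, adjusted p = 0.0173 by edgeR) and Rbm8a (-0.29, 0.0222), while its helicase Eif4a3 (-0.15), Smg9 (0.17) and Upf3b (0.13) were not called. Magoh lost its call without Stag2KO replicate 1 or 3 (0.0523 and 0.0535), and Rbm8a without any single Stag2KO library (0.0571 to 0.0765). The list kept 0 calls without Stag2KO replicate 1 or 3 and 1 without replicate 2. The nuclear exosome and its adaptors are the machinery that trims and degrades nuclear RNA. Their 18 tested genes had a median of -0.08. Of these 18, 1 was called lower, 0 higher and 17 not called (5.56%, against 21.2% of all genes). That gene was Exosc8 (-0.26, adjusted p = 0.0496), whose call was kept only without Stag2WT replicate 1 (lost calls 0.0935 to 0.134). Exosc3 (-0.25), Exosc7 (-0.31), Exosc2 (-0.22), Zfc3h1 (0.19) and Zcchc7 (0.16) were not called, although Zfc3h1 was called without Stag2WT replicate 3 (0.0483).

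Genes next to the members were read for a difference shared along the chromosome. Outside the members, 12 neighbours were listed and 10 tested. Of the 10, 1 was called lower, 0 higher and 9 not called, where 21.2% of all genes were called. Frmd8, beyond Neat1, averaged 81.2 ± 6.32 CPM in Stag2KO against 78.4 ± 4.62 in Stag2WT (SD, n = 3 each; log2 fold change 0.05, adjusted p = 0.672 by edgeR). It was not called, while Neat1 beside it had a log2 fold change of 0.83.

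Among neighbours of the hosts, 1 was called. Slc3a2, the amino acid transporter chain gene that starts beside Snhg1 on the opposite strand, had -0.20 (adjusted p = 0.074 by edgeR) and was called without Stag2WT replicate 1 (0.0439). Wdr74, a ribosome biogenesis gene on the other side of Snhg1, had -0.19 (0.133), and Snhg1 itself -0.18. Rcc1, which loads Ran with GTP on chromatin and lies next to Snhg3, fell from 129 ± 9.9 to 98.9 ± 2.9 CPM (-0.38, adjusted p = 0.00823), also in each fit without 1 library. Phactr4, on the other side of Snhg3, had -0.10 (0.259). Cenpl, a centromere gene by Gas5, had -0.20 (0.0658), and Serpinc1, on its other side, stood at 0.688 and 0.525 CPM. Trnau1ap beside Snhg12 had -0.04 (0.733). Ndst3 beside Snhg8 stood at 0.386 and 0.265 CPM. Prss12 beside Snhg8 and Rab42 beside Snhg12 were too low to test. Zbtb37 overlaps Gas5 on the opposite strand in RefSeq, at 0.37 (0.297), and without a known strand setting its reads and those of Gas5 cannot be told apart where they overlap.

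Members were also set against each other and against all tested genes averaging 5 CPM or more, by Pearson's r of log2 CPM over the 6 libraries. The libraries form 2 groups, so any gene that separates them correlates with Malat1 and Neat1, and these values are descriptions. Gas5 and Snhg1 had r = 0.92, Snhg1 and Snhg12 0.78, and Gas5 and Snhg12 0.66. Malat1 and Neat1 had 0.81, while r between either and the hosts ran from -0.82 to -0.31. Of 10819 genes, those most like Malat1 were Miip and Luc7l2, a U1 snRNP-associated splicing gene (both r = 0.997). Those most like Neat1 were Il5ra, the interleukin 5 receptor gene of eosinophils (0.999), and Alox5, the leukotriene-forming lipoxygenase gene (0.998). Il5ra was at 16.1 and 6.44 CPM and Alox5 at 156 and 92.0 CPM in Stag2KO and Stag2WT. Most like Gas5 were Mesdc2 (0.992) and Gm10075 (0.986), most like Snhg1 were Wdr75 (0.999), a ribosome biogenesis gene, and Nup43 (0.997), a nuclear pore gene, and most like Snhg12 were Igkv6-17 (0.996) and Mmgt1 (0.992).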

How the data were processed

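Whole-number read counts by gene symbol, as the authors deposited them, were taken for 6 libraries. Build mm9 and the tools STAR 2.4, HTSeq 0.6.1 and DESeq2 are named, per the submitters' processing notes. No source used here gives the annotation, strand setting or library kit of these samples. Library sizes and tests exclude the counter totals: 8.81% to 12.8% of a library's reads lay in no gene, 2.02% to 2.20% were ambiguous and 23.4% to 28.6% had no unique alignment. Counts were fitted in R 4.3.3 with edgeR 4.0.16 (TMM, filterByExpr, robust quasi-likelihood, genotype only), with Benjamini-Hochberg adjustment over 15708 genes. Standard errors and adjusted p-values come from that fit. In simulated counts with known changes, all changed genes that edgeR, limma-voom or DESeq2 called had the right sign. However, each tool's share of false calls was above the nominal level. Changes were planted in a small part of the genes, with no other factor shared by the libraries of a group. The simulation therefore does not measure how many calls in the present data are false. DESeq2 1.42.0 and limma 3.58.1 were alternatives. The members and lists were chosen with earlier results of these data known. Named were all members, their neighbours, the 2 most correlated genes of each member and, per list, the 4 genes of smallest p plus genes of at least 50 CPM whose groups do not overlap, up to 8. Replicates were numbered in accession order. List symbols were matched through RefSeq synonyms (GRCm38.p6), for example Firre as 6720401G13Rik, Jpx as Enox and Trp53cor1 as Gm16197. Apart from the windows of the printed sequences, which are on GRCm38.p6, gene positions are left out, since the reference is not on mm9. Some genes that this naming covers are not reported here.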

Additional observations from a re-analysis of the deposited data

How the results depend on the processing

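Low counts limit what can be read from Snhg3 and most small RNA rows, and the cause of those low counts was not tested. No paired analysis was possible because replicate numbers were given in accession order and carry no pairing. In every alternative run, Malat1 and Neat1 kept a positive and Gas5, Snhg1 and Snhg12 a negative log2 fold change. Without 1 library, called genes numbered 1967 to 2548 against 3333 (2044, 2016 and 1967 without Stag2KO replicate 1, 2 and 3, and 1990 without Stag2WT replicate 2), members called higher 1 to 2, and members called lower 0. List calls then ran 1 to 3 (non-coding hosts), 1 to 3 (coding hosts), 1 to 3 (other long RNAs), 0 to 1 (paraspeckle), 1 to 2 (speckle), 0 to 5 (snoRNP), 0 to 2 (decay), 0 to 1 (exosome) and 0 to 1 (small RNA rows). The share of reads in no gene then differed by 1.90 to 2.89 percentage points, against 2.47 with all libraries.

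With that share as a covariate, 67 genes were called, and 0 members, non-coding hosts, coding hosts, other long RNAs, paraspeckle, speckle, snoRNP, decay, exosome or small RNA genes; 1928 genes had an unadjusted p under 0.05. The sign then reversed for Itga2b (-0.092), Mir17hg (-0.00369), Ndst3 (-0.49) and Trnau1ap (0.11). Ndst3 also reversed by limma-voom (-0.018) and, over fits without 1 library, ran from -0.10 to 1.06, its low without Stag2KO replicate 2, and Serpinc1 from -0.27 (without Stag2KO replicate 3) to 0.72, and Trnau1ap with gene reads as library size (0.00275).

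With all table reads as library size, 1 member (Neat1) was called; calls were 2 for non-coding hosts, 1 for coding hosts, 1 for paraspeckle, 0 for snoRNP, 1 for decay and 0 for exosome genes. With gene reads as library size they were 2 for non-coding hosts, 1 for paraspeckle, 2 for snoRNP and 0 for exosome genes. With no filter beyond 1 read, 1 member (Neat1) was called, with 2 non-coding hosts, 1 paraspeckle and 2 exosome genes. A minimum of 5 CPM in 3 libraries gave 2 exosome and 0 small RNA calls, the fit without robust dispersion 0 exosome calls, limma-voom 2 non-coding hosts and 0 exosome calls, and DESeq2 7 coding hosts, 3 exosome and 0 small RNA calls. The cause of these moves was not tested.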
